A study of Mus musculus with 12 samples.

Results

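The genes of the cytosolic ribosomal proteins were followed in mouse liver after valproic acid (VPA), with or without obeticholic acid (OCA). They were found by name, with no use of measured values: protein-coding rows called Rpl or Rps plus a number (with at most a short suffix such as a, x, y, l or l1), together with Rpsa, Rplp0, Rplp1 and Rplp2, and without the Rps6k kinases. This gave 83 of the 34986 genes in the table, 51 of the large (60S) subunit and 32 of the small (40S) subunit, spread over 19 chromosomes with 14 on chromosome 7. The 6 VPA_OCA mice and the 6 VPA mice were all female C57BL/6 animals of 16 weeks, each giving 1 liver library. VPA is an antiepileptic drug, OCA is a semi-synthetic bile acid and an agonist of FXR, the nuclear receptor for bile acids, and the question is how liver RNA differs once OCA is added to VPA. Both groups received VPA, the labels used here give no dose or duration, and no mouse free of VPA was analysed here.

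The tissue label was checked first against hepatocyte markers. All 9 markers found in the table were present in every library, and their summed normalized count was between 2307180 and 3632180 in VPA_OCA and between 2556010 and 3630760 in VPA. Normalized counts, which are the authors' estimated read counts divided by a factor for each library, totalled 20236900 to 22087711 per library. The spacing of low values puts the depth near 37746632 reads in VPA_OCA replicate 1 and at 17879222 to 22021646 reads in the others. VPA_OCA replicate 2 stood apart for many members, and libraries numbered 1 to 3 differed from those numbered 4 to 6 in both groups. That division is not given in the labels and was drawn after the libraries were seen to differ. Results between these sets are also given without VPA_OCA replicate 2.

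Each cytosolic ribosome carries 1 copy of nearly every one of these proteins, built around ribosomal RNA, and cells are known to make them in near-equal amounts. Their mRNAs belong to the terminal oligopyrimidine (TOP) class, which starts with a C followed by a run of pyrimidines. Through that run, the kinase complex mTORC1 and the binding protein LARP1 set how well the mRNAs are translated and stored, while Myc is known to raise their transcription. Hepatocytes, which export much of the blood's protein, hold many ribosomes. An RNA level as measured here says nothing of translation.

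The start of 8 genes is shown because the results below turn on them: the paralog pairs Rpl22l1 with Rpl22 and Rps27l with Rps27, and Rpl13a, Rpl7a, Rpl28 and Rplp2 for their different behaviour between libraries. The sequences are from RefSeq, build GRCm38.p6, 5′ to 3′ on the gene's strand, from 14 bases before the annotated start of transcription through 16 bases from it. Where RefSeq lists more than 1 start, the one listed first is shown. Capitals mark the longest run of C and T in these 30 bases.
Rpl22l1 (chr3:28805494-28805523, plus strand): tgcggcgcaagcccgTTCTCTTCCCacggc
Rpl22 (chr4:152325712-152325741, plus strand): tcgCCCTgggaaaagcaatagctggccgat
Rps27l (chr9:66946072-66946101, plus strand): caCTCCTCCCCgccgcctctatcccggaag
Rps27 (chr3:90213633-90213662, minus strand): tttccgctttcgCTCCTTTCCggcggtgac
Rpl13a (chr7:45128730-45128759, minus strand): aaaccctgcgacaagaCCTCCTCCTTTCCC
Rpl7a (chr2:26910793-26910822, plus strand): TTCCCTCTTCTTTCTTTCTCCagcagccga
Rpl28 (chr7:4792951-4792980, plus strand): cgcctctcgtgTCTCTCTTTCCgtctccgg
Rplp2 (chr7:141447637-141447666, plus strand): gcgtcagcgTCTTCCTTTCgccgccggacg

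The run was 21 bases long in Rpl7a, 14 in Rpl13a, 11 in Rpl28, 10 in Rpl22l1 and Rplp2, 9 in Rps27l and Rps27, and 4 in Rpl22. Of the 83 members, 63 were found in the RefSeq promoter table. A run of at least 8 pyrimidines within 25 bases of the start was present in 33 of these 63 (52.4%), against 22.3% of all 27025 genes in that table. The letters CGGAAG, the core bound by factors of the ETS family, occurred on either strand of the 300-base promoter (250 before and 50 after the start) in 42 of the 63 members (66.7%), against 18.8% of all genes. The reverse complement of CGGAAG begins with pyrimidines, so the run and the motif can share bases. These matches describe letters and do not show that a factor binds there.

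Ribosomal protein transcripts were among the most abundant in these livers. FPKM values (fragments scaled by gene length and library total), which allow levels of different genes to be compared, ran from 18.5 (Rpl7l1) to 989 (Rps2), with a median of 347, over the 80 members with a mean normalized count of at least 20. The median over all 19006 genes tested was 2.17 FPKM, and 66 members were among the 500 genes with the highest FPKM. Rps2, a 40S protein near the mRNA entry channel, had 1038 ± 220 FPKM in VPA_OCA and 940.1 ± 97.5 FPKM in VPA (SD, n = 6 each). Rpl10, which joins late in 60S assembly, had 943.8 ± 102 FPKM in VPA_OCA and 952 ± 50.6 FPKM in VPA. Rpl13a, which also acts outside the ribosome as a repressor of inflammatory mRNAs, had 887.5 ± 376 FPKM in VPA_OCA and 857.9 ± 126 FPKM in VPA. Rpl41, the smallest ribosomal protein, had 749.2 ± 267 FPKM in VPA_OCA and 731 ± 112 FPKM in VPA, and Rps18, of the 40S head, had 655.5 ± 135 FPKM in VPA_OCA and 693.6 ± 110 FPKM in VPA. The mean ± SD ranges of neighbours in this order overlapped in each group. The members were short, with transcript widths of 384 (Rpl38) to 2606 bases (Rpl7l1) and a median of 701 against 1824 over all genes tested. Their GC content was 40.5% to 60.9%, with a median of 51.7% against 49.6%. Whole liver tissue cannot tell fewer cells of a type from less RNA per cell.

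The comparison of VPA_OCA with VPA called none of the 81 members that passed the filter on low values, by limma on log2(normalized count + 1) with Benjamini-Hochberg adjustment over all 19006 genes. The background was 137 genes called (0.721%). With the replicate number as a block it was 210 genes (1.1%), again with no member among them. The median log2 fold change was −0.03 over the members and −0.00 over all genes, with 53 members below 0 and 28 above (50.1% of all genes were below 0). At an unadjusted p under 0.05 there were 5 members, each lower in VPA_OCA, against a background of 9.55% in either direction and 4.25% lower. In the authors' deposited table, 80 members carry an adjusted p, and the lowest is 0.09387 (Rpl7). None of these is under 0.05, against 697 of 12517 genes (5.57%). No member had VPA_OCA and VPA libraries that did not overlap, against 1.44% of all genes. For 79 of the 81 members the 95% interval of the fold change excluded a change of 1.5-fold in either direction. The 2 others were Rpl22l1, whose interval reached 0.71 (log2) on the high side, and Rpl3l, which was near 0 counts. A missed threshold does not show equal levels, and the intervals give the size of change that these libraries leave possible. Libraries are those of separate mice, as far as the labels say.

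**Figure D1:**
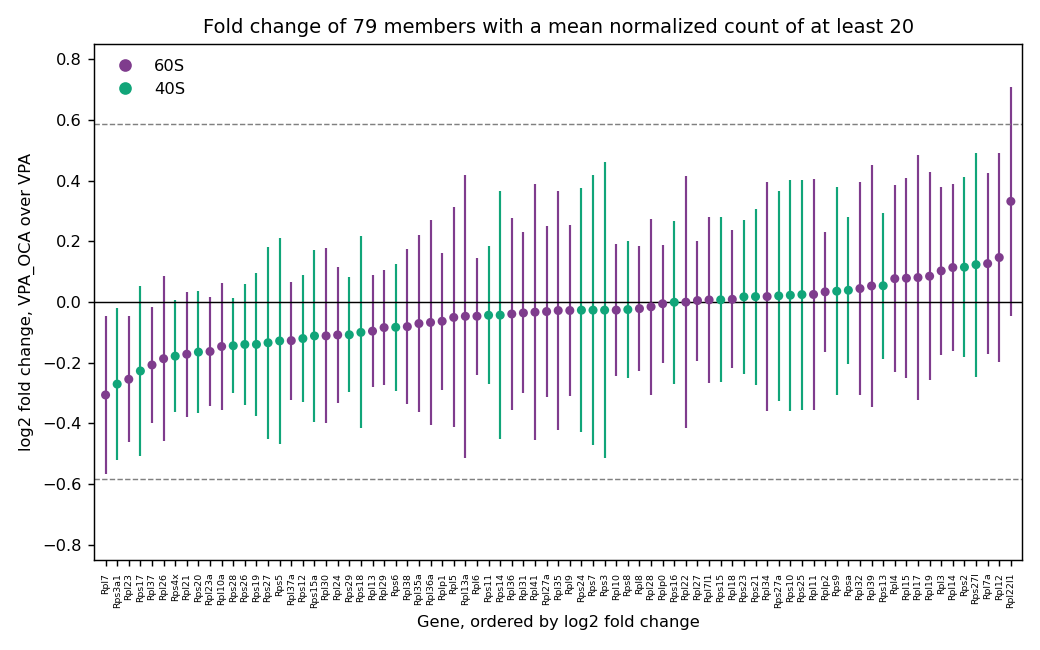
Log2 fold change of VPA_OCA over VPA (points) with its 95% interval from limma (lines) for 79 of the 80 members with a mean normalized count of at least 20, ordered by value and coloured by subunit (60S purple, 40S green). Dashed lines mark a change of 1.5-fold. The estimates lie between −0.31 (Rpl7) and 0.33 (Rpl22l1), and none passed the adjusted threshold.

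Rpl7 and Rps3a1 were among the members with the lowest fold changes. Rpl7, a 60S protein, had a normalized count of 7200 to 8796 (median 8177) in VPA_OCA and 7993 to 13210 (median 9744) in VPA, a log2 fold change of −0.31 ± 0.12 (SE) with a limma adjusted p of 0.412. Of the 6 VPA_OCA libraries, 3 lay below every VPA library. Rps3a1, a 40S protein, had 6501 to 8885 (median 6834) in VPA_OCA and 7015 to 10730 (median 8497) in VPA, a log2 fold change of −0.27 ± 0.12 with an adjusted p of 0.48. Of its VPA_OCA libraries, 4 lay below every VPA library, and replicate 2 lay well inside the VPA range.

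Rpl23 and Rpl37, which besides their place in the 60S subunit bind the p53 regulator Mdm2, were also at an unadjusted p under 0.05. Rpl23 had a normalized count of 5413 to 6423 (median 6211) in VPA_OCA and 6194 to 8246 (median 7244) in VPA, a log2 fold change of −0.25 ± 0.10 with an adjusted p of 0.374. Rpl37 had 2291 to 2755 (median 2421) in VPA_OCA and 2523 to 3187 (median 2880) in VPA, a log2 fold change of −0.21 ± 0.09 with an adjusted p of 0.48. In each, the ranges of the groups overlapped. Among the next members by p, the X-linked Rps4x had 5930 to 7337 in VPA_OCA and 6537 to 8131 in VPA, with 5 of 6 VPA_OCA libraries below every VPA library and an adjusted p of 0.537. Rps28, which lies by the mRNA exit, showed the same count of 5 of 6, with 1875 to 2274 in VPA_OCA and 2085 to 2398 in VPA and an adjusted p of 0.572. In both genes the exception was VPA_OCA replicate 2. Rpl23a, at the exit of the nascent chain, and Rpl21 had log2 fold changes of −0.16 and −0.17, with adjusted p of 0.572 and 0.639.

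The highest fold changes were in Rpl22l1, Rpl12 and Rpl7a. Rpl12, at the base of the stalk, had a normalized count of 4030 to 8590 (median 5338) in VPA_OCA and 4519 to 6198 (median 4684) in VPA, a log2 fold change of 0.15 ± 0.16 with an adjusted p of 0.858. Rpl7a had 7635 to 14530 (median 8559) in VPA_OCA and 7848 to 9061 (median 8435) in VPA, a log2 fold change of 0.13 ± 0.14 with an adjusted p of 0.859. Both maxima were in VPA_OCA replicate 2. Without that library the log2 fold change was 0.02 for Rpl12 and −0.00 for Rpl7a.

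The stalk proteins, which recruit elongation factors to the ribosome, differed little between the groups. Rplp0, the stalk's anchor, averaged 9742 ± 947 normalized counts in VPA_OCA and 9756 ± 519 in VPA (SD, n = 6 each), a log2 fold change of −0.01 with a 95% interval of −0.20 to 0.19. Rplp1 averaged 6470 ± 655 in VPA_OCA and 6781 ± 923 in VPA, and its interval was −0.29 to 0.16. Rplp2 averaged 3243 ± 304 in VPA_OCA and 3170 ± 310 in VPA, and its interval was −0.16 to 0.23. Rpsa, a 40S protein also known as a laminin receptor, averaged 13652 ± 1831 in VPA_OCA and 13268 ± 1457 in VPA, and its interval was −0.20 to 0.28.

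Summed over all members, ribosomal protein transcripts made up 2.34%, 2.84%, 2.16%, 1.70%, 1.86% and 1.98% of the normalized counts in VPA_OCA replicates 1 to 6, and 2.41%, 2.16%, 2.20%, 1.94%, 2.09% and 2.14% in VPA replicates 1 to 6. The means were 2.15 ± 0.408% in VPA_OCA and 2.16 ± 0.153% in VPA (SD, n = 6 each). VPA_OCA held both the highest and the lowest library. The 60S members took 1.25 ± 0.228% in VPA_OCA and 1.26 ± 0.0811% in VPA, and the 40S members 0.894 ± 0.18% in VPA_OCA and 0.901 ± 0.0731% in VPA. In both subunits VPA_OCA replicate 2 was the highest of the 12 libraries and VPA_OCA replicate 4 the lowest. A sum over the members was given no test.

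**Figure D2:**
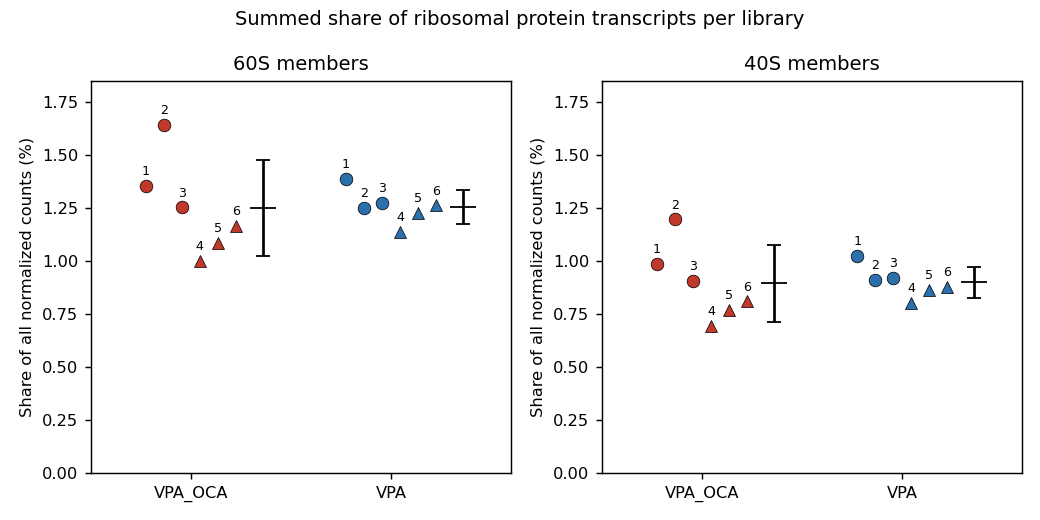
Share of all normalized counts held by the 51 members of the 60S subunit (left) and the 32 of the 40S subunit (right) in each library, by group, with the replicate number above each point. Circles are numbers 1 to 3, triangles numbers 4 to 6, and bars show mean ± SD of the 6 libraries. VPA_OCA replicate 2 is highest and VPA_OCA replicate 4 lowest in both panels.

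The members moved together from library to library. VPA_OCA replicate 2 was the highest of the 12 libraries for 55 of the 80 members, and VPA_OCA replicate 4 the lowest for 58. The same counts were not made over all genes. Against the mean of the other VPA_OCA libraries, replicate 2 ran from 0.964-fold for Rpl28 to 2.16-fold for Rpl13a, with a median of 1.49-fold. The within-group SD of log2 levels had a median of 0.27 over members in VPA_OCA and 0.17 in VPA. Over all genes with a mean at or above that of the lowest of these members, it was 0.22 in VPA_OCA and 0.19 in VPA. Among the 80 members with a mean normalized count of at least 20, the steadiest was Rpl23a in VPA_OCA (SD 0.07) and Rpl3, at the peptidyl transferase centre, in VPA (SD 0.04). The most variable of them was Rps3, which lines the mRNA entry and also acts in DNA repair, in VPA_OCA (SD 0.59) and Rpl22l1 in VPA (SD 0.30). Without VPA_OCA replicate 2 the members' median log2 fold change was −0.13, 77 of 81 were below 0 (background 49.4%), and 11 had an unadjusted p under 0.05 (background 9.82%). None was called then either, with a lowest adjusted p of 0.253 (background 0.768% called). Leaving out VPA_OCA replicate 4 or VPA_OCA replicate 5 instead put the members' median above 0, again with no member called.

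**Figure D3:**
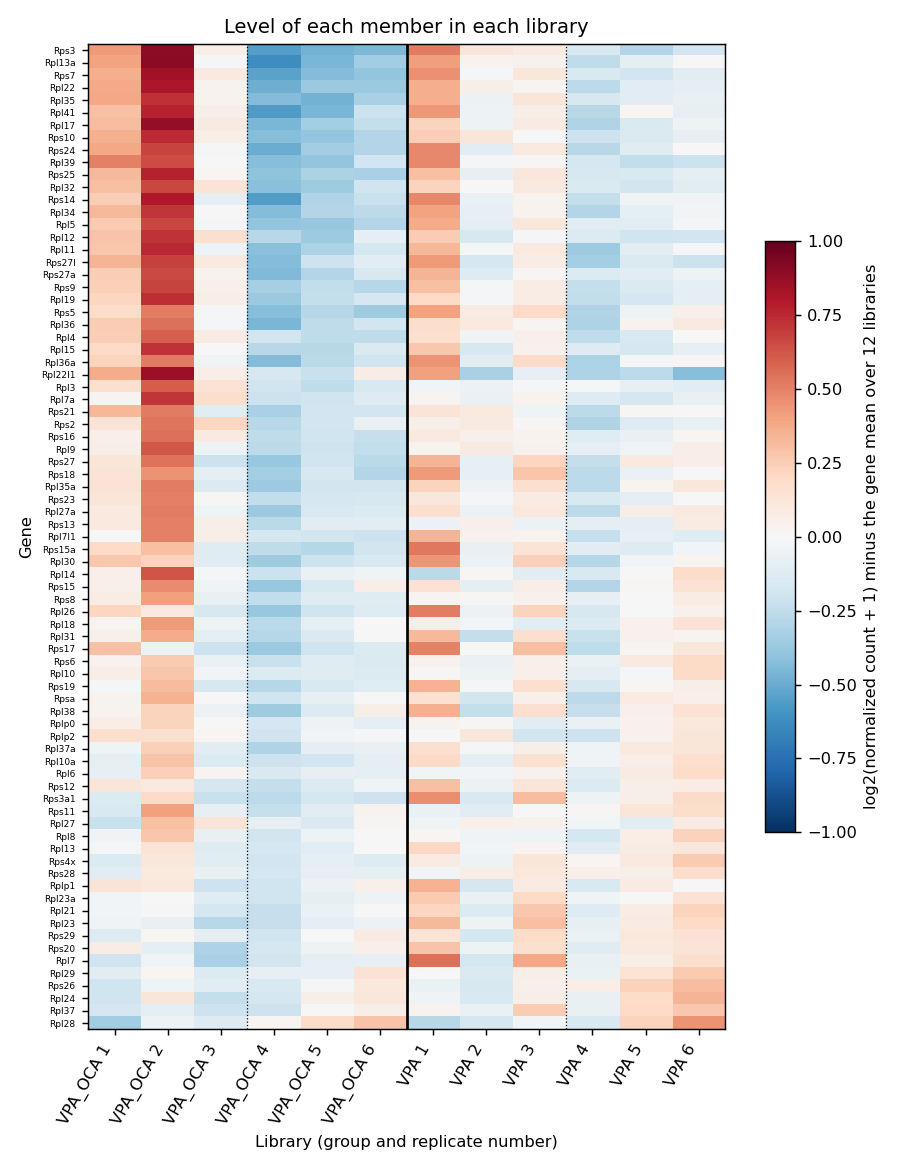
Level of 79 of the 80 members (rows, ordered by the difference between numbers 4 to 6 and 1 to 3 in VPA_OCA) in each library (columns, VPA_OCA left of the solid line and VPA right of it), as log2(normalized count + 1) minus the gene's mean over the 12 libraries. Red is above and blue below that mean. VPA_OCA replicate 2 is the highest library and VPA_OCA replicate 4 the lowest for most rows. Rpl28 at the bottom has the highest difference, and some other members also have a difference above 0.

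Libraries numbered 4 to 6 had lower ribosomal protein levels than those numbered 1 to 3, in both groups. In VPA_OCA the mean log2 level was lower in numbers 4 to 6 for 70 of 80 members (52.1% of all genes), with a median difference of −0.37. In VPA it was lower for 62 of 80 (50.7% of all genes), with a median difference of −0.14. Every VPA_OCA library numbered 4 to 6 lay below every one numbered 1 to 3 for 47 members (15.9% of all genes), and the same held in VPA for 18 members (15.1%). Without VPA_OCA replicate 2 the median difference in VPA_OCA was −0.24, with 68 of 80 lower (52.5% of all genes) and 47 without overlap (21.2% of all genes). The share of mitochondrially encoded transcripts moved with this division, at 7.12% to 7.51% in numbers 4 to 6 and 9.09% to 10.7% in numbers 1 to 3 of VPA_OCA, and at 5.84% to 7.21% in numbers 4 to 6 and 10.4% to 11.7% in numbers 1 to 3 of VPA. Its part in the result was not tested. With those transcripts left out of the total, members held 1.99 ± 0.153% in numbers 4 to 6 and 2.71 ± 0.37% in numbers 1 to 3 of VPA_OCA (SD, n = 3 each). Without replicate 2 the mean of VPA_OCA numbers 1 and 3 was 2.51%. The division was not particular to these transcripts, since some cell type markers differed too. The log2 level was higher in numbers 4 to 6 for Reln (by 0.94 in VPA_OCA and 0.96 in VPA), Pdgfrb (1.17 and 1.01) and Sox9 (1.19 and 0.84). For Krt19 it was lower (−0.44 in VPA_OCA and −0.09 in VPA). The part of such genes in the result was not tested.

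Members ranked alike by the difference between numbers 4 to 6 and 1 to 3 in VPA_OCA and in VPA. Rps3 had 5024, 5313 and 5397 normalized counts in VPA_OCA numbers 4 to 6, against 9930, 13740 and 7733 in numbers 1 to 3. In VPA it had 6635, 6003 and 6449 in numbers 4 to 6, against 10560, 8009 and 7826 in numbers 1 to 3. These log2 differences, −0.96 in VPA_OCA and −0.46 in VPA, were the lowest of the 80 members with a mean normalized count of at least 20 in each group, and the sets did not overlap in either. Without VPA_OCA replicate 2 the VPA_OCA difference was −0.74, still the lowest of these. Rpl13a followed in VPA_OCA with −0.91, beside −0.28 in VPA, and Rpl22 had −0.82 in VPA_OCA and −0.30 in VPA. Without VPA_OCA replicate 2 the VPA_OCA values were −0.67 for Rpl13a and −0.62 for Rpl22. Rpl28 went the other way in both, with 0.34 in VPA_OCA (0.40 without replicate 2) and 0.33 in VPA. Its normalized counts in VPA_OCA were 4636, 5196 and 5565 in numbers 4 to 6 and 3585, 4410 and 4172 in numbers 1 to 3. Over the 80 members, the difference in VPA_OCA and that in VPA, which come from separate libraries, had a Spearman rho of 0.758 (0.792 without VPA_OCA replicate 2). Members are not independent of each other, so this is a description. The rho of the VPA difference was 0.22 with GC content and −0.03 with width. The rho of the VPA_OCA difference was 0.09 with GC content and −0.08 with width. Its median was −0.46 over 32 members with a pyrimidine run as defined above and −0.30 over 28 without. In VPA these medians were −0.19 and −0.12.

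**Figure D4:**
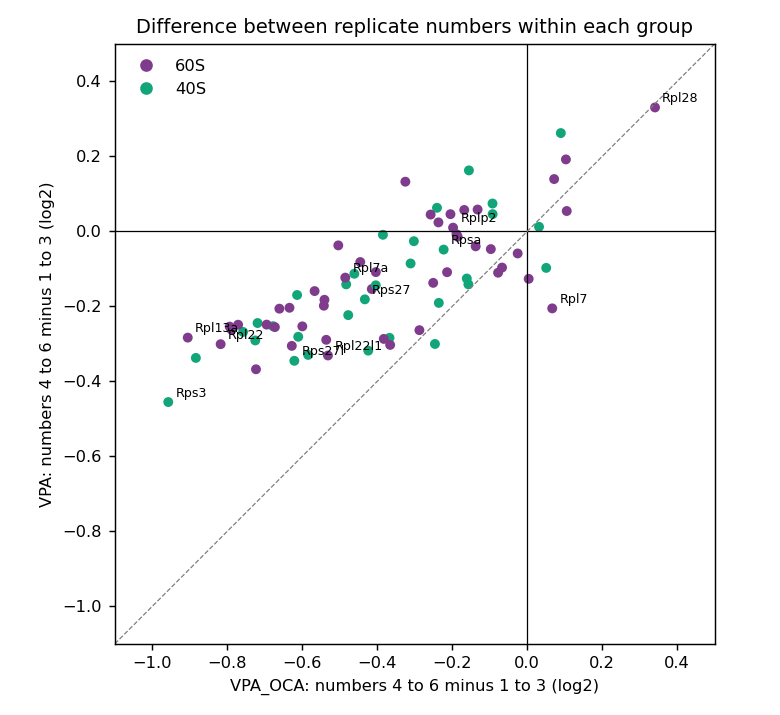
Mean log2 level in replicate numbers 4 to 6 minus that in numbers 1 to 3, for 79 of the 80 members, in VPA_OCA (horizontal axis) and in VPA (vertical axis), coloured by subunit. The dashed line marks equal differences. Most members lie in the lower left, with Rps3 at −0.96 and −0.46, and Rpl28 lies in the upper right at 0.34 and 0.33.

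The comparison of VPA_OCA with VPA was also made within each set. In numbers 4 to 6 the members' median log2 fold change was −0.16, and 80 of 81 were below 0 (49.6% of all genes), the exception being Rpl22l1 at 0.23. At an unadjusted p under 0.05 there were 24 members (background 11.3%), and 28 of 80 had every VPA_OCA library below every VPA library (background 7.31%). Members move together, so these counts are not independent and rest on 3 libraries per group. The members' summed share in numbers 4 to 6 overlapped, at 1.70% to 1.98% in VPA_OCA and 1.94% to 2.14% in VPA. VPA_OCA replicate 4, the lowest for most members, was not left out of numbers 4 to 6. In numbers 1 to 3 the median was 0.12, with 29 of 81 below 0 (49.4% of all genes), 3 at an unadjusted p under 0.05 (background 12.4%) and 1 of 80 with every VPA_OCA library below every VPA library (background 8.62%). No member was called in either set, where 0.5% of genes were called in numbers 4 to 6 and 0.637% in numbers 1 to 3. The lowest limma adjusted p of a member was 0.179 (Rpl35) in numbers 4 to 6 and 0.355 in numbers 1 to 3. The positive median in numbers 1 to 3 rests on VPA_OCA replicate 2: without it the median was −0.03, with 45 of 81 below 0 (47.9% of all genes) and no member called (lowest limma adjusted p 0.373). The members' mean share was then 2.25% in VPA_OCA numbers 1 and 3 and 2.26% in VPA numbers 1 to 3. The difference between the sets was also fitted as an interaction in limma. The sets were drawn after seeing these same libraries, so the p-values within and between them are descriptive. None of the members was called (background 0.0105%, lowest adjusted p 0.524 for Rpl3). At an unadjusted p under 0.05 there were 12, each with the lower difference in numbers 4 to 6 (background 8.36%). Without VPA_OCA replicate 2 there were 2 (background 7.18%), and none was called (lowest adjusted p 0.588).

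Several members have a paralog that can take the same place in the ribosome, and the ratio within a library does not depend on how the library was scaled. Rpl22l1 is the paralog of Rpl22, whose protein is known to hold Rpl22l1 down. Its normalized count was 657 to 1382 (median 804) in VPA_OCA and 570.2 to 1016 (median 628) in VPA, while Rpl22 had 2302 to 5666 (median 2905) in VPA_OCA and 2696 to 4158 (median 3165) in VPA. By FPKM, Rpl22l1 stood at 36.4% of Rpl22 in VPA_OCA and at 29.8% in VPA. The log2 ratio was −1.91 ± 0.184 in VPA_OCA and −2.24 ± 0.166 in VPA (SD, n = 6 each). It was 0.33 higher in VPA_OCA, or 1.26-fold (exact permutation test over 924 splits, 2-sided, p = 0.00866, adjusted p = 0.026 over 4 pairs). The ratio was higher in 5 of 6 numbers, and 3 VPA_OCA libraries lay above every VPA library. The difference was 0.49 within numbers 4 to 6 and 0.17 within numbers 1 to 3.

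Rps27l, a paralog of Rps27 that p53 is known to induce, had a normalized count of 2032 to 4391 (median 2736) in VPA_OCA and 2163 to 3683 (median 2454) in VPA. Rps27 had 3550 to 6734 (median 4001) in VPA_OCA and 3921 to 5861 (median 4899) in VPA. By FPKM, Rps27l stood at 68.6% of Rps27 in VPA_OCA and at 57.3% in VPA. The log2 ratio was −0.63 ± 0.137 in VPA_OCA and −0.88 ± 0.131 in VPA, a difference of 0.26 or 1.2-fold (exact permutation p = 0.013, adjusted p = 0.026). It was higher in 6 of 6 numbers, with 4 VPA_OCA libraries above every VPA library, and differed by 0.25 within numbers 4 to 6 and by 0.27 within numbers 1 to 3. The labels give no source for a pairing by number, and for 4 of 6 numbers the best match was another number. Counts over numbers, here and for Rpl22l1/Rpl22, are therefore only descriptive.

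With the replicate number as a block the differences had the same size and neither passed (exact sign-flip test over 64 flips, p = 0.0625 and adjusted p = 0.0833 for Rpl22l1/Rpl22, p = 0.03125 and adjusted p = 0.0625 for Rps27l/Rps27). The smallest p this test can give is 0.03125, which Rps27l/Rps27 reached, so after adjustment over 4 pairs the test could hardly pass. Both calls ended after each library was corrected for GC content, which is 41.0% in Rpl22l1 and 48.2% in Rpl22, and 40.5% in Rps27l and 51.7% in Rps27 (exact permutation, adjusted p = 0.0981 for each, with differences of 0.32 and 0.24). The call for Rps27l/Rps27 was also lost without VPA_OCA replicate 1 or without VPA_OCA replicate 3 (exact permutation, adjusted p = 0.0519 in each case). No member of either pair was called by itself: Rpl22l1 had a log2 fold change of 0.33 ± 0.18 (limma adjusted p = 0.61), Rpl22 −0.00 ± 0.19 (0.9995), Rps27l 0.12 ± 0.17 (0.897) and Rps27 −0.13 ± 0.15 (0.858).

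The ratio of Rpl7l1, a relative of Rpl7, to Rpl7 was −2.99 ± 0.271 in VPA_OCA and −3.30 ± 0.198 in VPA, a difference of 0.31 that did not pass (exact permutation p = 0.0455, adjusted p = 0.0606). The ratio was higher in 6 of 6 numbers and differed by 0.13 within numbers 4 to 6 and by 0.50 within numbers 1 to 3. With the replicate block it did not pass either (exact sign-flip p = 0.03125, adjusted p = 0.0625). It passed without VPA_OCA replicate 5, VPA_OCA replicate 6 or VPA replicate 2, and after a correction for gene width (exact permutation, adjusted p between 0.026 and 0.0462). Rpl7l1 itself had 883.2 to 1447 normalized counts in VPA_OCA and 866.8 to 1287 in VPA. Rpl3l, the striated-muscle form of Rpl3, had 0 to 2.796 normalized counts in VPA_OCA and 0 to 4.011 in VPA, so its ratio to Rpl3 (exact permutation p = 0.34) rests on a few reads. Skeletal muscle markers summed to 13.0 to 31.1 normalized counts in VPA_OCA and 5.27 to 523 in VPA, and their part in it was not tested. The testis-expressed Rpl10l was at 3.356 in VPA_OCA replicate 1 and at 0 elsewhere, and Rpl39l, also known from testis, reached at most 2. Neither passed the filter.

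**Figure D5:**
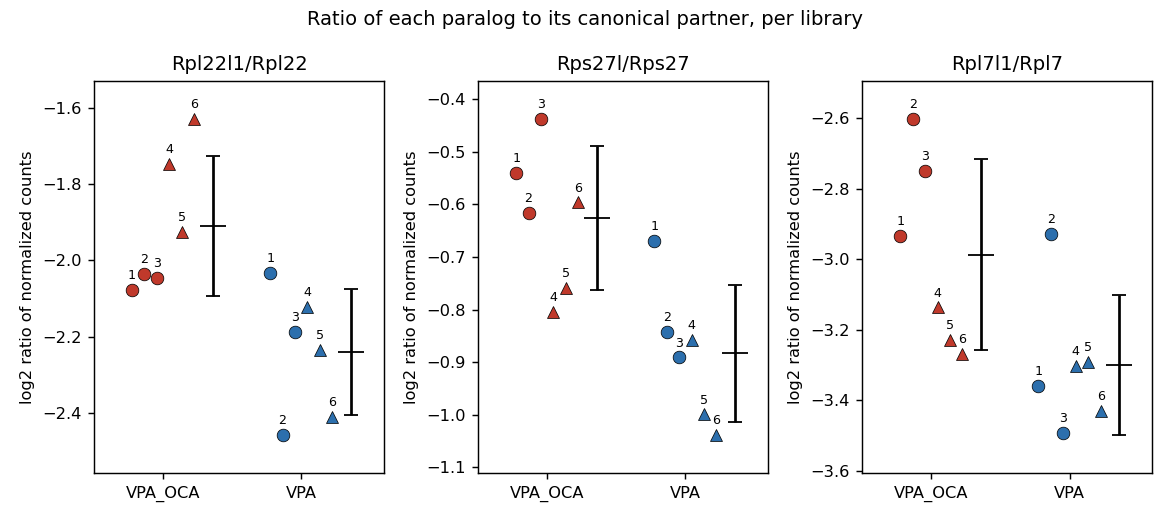
Log2 ratio of normalized counts of each paralog to its canonical partner in each library, by group, with replicate numbers above the points (circles 1 to 3, triangles 4 to 6) and bars for mean ± SD of 6 libraries. Rpl22l1/Rpl22 averages −1.91 in VPA_OCA and −2.24 in VPA, Rps27l/Rps27 averages −0.63 in VPA_OCA and −0.88 in VPA, and the libraries of the groups overlap in every panel.

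Genes that act with the ribosomal proteins gave no calls. Of 28 translation factors and other TOP mRNAs tested, none passed, and the median log2 fold change was −0.01. The lowest p was in Eif4b, a helicase cofactor in initiation, with 6530 ± 767 normalized counts in VPA_OCA and 7751 ± 522 in VPA (limma adjusted p = 0.366). Among ribosomal proteins that the naming rule leaves out, none of 4 tested passed. They include Fau, which encodes a 40S protein fused to a ubiquitin-like protein, the scaffold Rack1, and Rpl36al. None of 35 genes of ribosome biogenesis passed (median 0.01), with Npm1, the nucleolar chaperone, at 2525 ± 388 normalized counts in VPA_OCA and 2949 ± 564 in VPA (adjusted p = 0.673). None of 27 regulators passed (median −0.07). Of these, Myc had the largest log2 fold change, 0.75 ± 0.36, with 160 ± 106 normalized counts in VPA_OCA and 87.7 ± 39.3 in VPA (adjusted p = 0.536). Larp1 had 1756 ± 463 in VPA_OCA and 2060 ± 298 in VPA (adjusted p = 0.694).

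None of the 78 mitochondrial ribosomal proteins passed either. Their median log2 fold change was 0.08 and 57 of 78 were above 0, where 28 of the 81 cytosolic members were. Of all genes tested, 50.1% were below 0. Mrpl55 had 368 ± 73.0 normalized counts in VPA_OCA and 299 ± 17.6 in VPA (limma adjusted p = 0.424). Every VPA_OCA library lay above every VPA library, and groups did not overlap in 1.44% of all genes. The log2 fold change of Mrpl55 was 0.28, and 0.18 without VPA_OCA replicate 2. Of 9 pseudogene rows of ribosomal proteins, 4 were tested and none passed. Reads shared between members and near-identical pseudogene copies may have been split by the authors' counting, and the strand setting is not given in the sources used here, so single members are uncertain to that extent. Marker lists of other liver cells held no called gene: summed normalized counts were 5039 to 8781 in VPA_OCA and 4611 to 12642 in VPA for 10 Kupffer cell and macrophage markers, and 2936 to 4213 in VPA_OCA and 2935 to 5042 in VPA for 8 endothelial markers. A log2 fold change below 0 was seen in 8 of 10 Kupffer cell and macrophage markers and 7 of 9 stellate cell and fibroblast markers. It was also seen in 8 of 10 lymphocyte and neutrophil markers and 3 of 7 cholangiocyte markers (50.1% of all genes). All 8 endothelial markers were below 0 too (median −0.21). Among them, Lyve1, an endothelial hyaluronan receptor, had 81.1 to 137 normalized counts in VPA_OCA and 128 to 205 in VPA, with 5 of 6 VPA_OCA libraries below every VPA library and a log2 fold change of −0.64 ± 0.17 (limma adjusted p = 0.115, 0.0314 with a term for the 2 sets of numbers, and 0.005935 in the authors' deposited table). Sums were 548 to 1060 in VPA_OCA and 683 to 1043 in VPA for 7 cholangiocyte markers, 3258 to 5209 in VPA_OCA and 3457 to 5484 in VPA for 9 stellate cell and fibroblast markers, and 249 to 410 in VPA_OCA and 262 to 463 in VPA for 10 lymphocyte and neutrophil markers. Their part in the members' levels was not tested.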

How the data were processed

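Liver RNA was sequenced from 12 mice (6 VPA_OCA, 6 VPA). Per the labels' protocols, livers were frozen, RNA was taken with Trizol and libraries came from a TruSeq RNA kit. The authors deposited 1 table with, per the file headers, a normalized count (a signal per gene and library), FPKM, p-values and adjusted p-values, a GC fraction and a width. The submitters' processing notes name edgeR and the build GRCm38.p5; the sources used here name no aligner or counter. Cells damaged by a decimal comma (89 normalized counts, 129 FPKM values) were divided by 1000, and 26 symbols turned into dates were restored. Whole reads could not be recovered: 79.8% to 84.6% of low values lay within 0.1 of a whole multiple, so no count model was run.

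Genes with at least 1 normalized count in at least 6 libraries (19006) were tested on log2(value + 1) with limma 3.58.1 (R 4.3.3, intensity trend, group only, threshold 0.05); the fit was tested on simulated data. Members and lists were chosen with earlier results of these data known. Named members are the 10 with the smallest p, the 3 highest and lowest fold changes, the 5 highest in FPKM, the stalk proteins, Rpsa, and paralogs with their partners, and up to 3 genes of each other list. Rps3, Rpl28, Rpl35 and Rpl38 were named after their values were seen. Libraries of the same number deviated together across 11481 genes (correlations 0.15 to 0.478, each above 0.1), so the numbers were taken as pairs, though for 4 of 6 numbers the VPA_OCA library correlated best with a VPA library of another number, and the labels give no source for the pairing. With that block, 210 genes were called (1.1%) against 137. Some values are not reported here, and 1 member is not drawn. Figures were drawn with matplotlib 3.10.9. No column of per-sample values was left unused.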

Additional observations from a re-analysis of the deposited data

Results flagged for a closer look

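Among 106 sets of 6 values (named genes, the summed share and the paralog ratios, per group), 15 had a library far from the other 5, and 7 of these were VPA_OCA replicate 2. For a single set of normal values chance gives about 1 in 20. These sets share the same libraries, move together and in part lie near 0 counts, so that rate is no test of their number. In VPA_OCA replicate 2 the normalized count was 14530 for Rpl7a (7635 to 10020 in the other VPA_OCA libraries), 1447 for Rpl7l1 (883.2 to 1069), 2274 for Rps28 (1875 to 2016), 8885 for Rps3a1 (6501 to 7088) and 7337 for Rps4x (5930 to 6382). In the same library it was 513.8 for Mrpl55 (319.9 to 355.1) and 656.3 for Mrps18a (496.5 to 548.6), both of the mitochondrial ribosome. VPA_OCA replicate 1 held the testis paralogs Rpl10l at 3.356 and Rpl39l at 0.5593, with 0 in the other VPA_OCA libraries. By the spacing of low values that library was the deepest, and 0.5593 is the worth of 1 read in it. Rpl39l reached 2 in VPA. VPA_OCA replicate 6 held Rpl36al at 2922 (2173 to 2443). In VPA replicate 1, Rpl22l1 was at 1016 (570.2 to 722) and Rpl39 at 3834 (2317 to 2763). VPA replicate 5 had the pseudogene row Rps12-ps3 at 5.815 (0.1987 to 1.136), VPA replicate 4 had Tsr1, of 40S assembly, at 196.5 (259 to 288.8), and VPA replicate 2 had a log2 ratio of Rpl7l1 to Rpl7 of −2.93 (−3.49 to −3.29).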

How the results depend on the processing

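Under each of the 34 alternatives run, 0 members were called. The lowest adjusted p was 0.0698, with the replicate block and the width correction. The members' median log2 fold change ran from −0.16 (numbers 4 to 6 alone) to 0.12 (numbers 1 to 3 alone). Between single libraries the members' median level had an SD of 0.21, which is not the error of a difference between groups. The median log2 fold change was above 0 under 3 alternatives: numbers 1 to 3 alone, and without VPA_OCA replicate 4 or VPA_OCA replicate 5. Of 28 named members, 15 changed sign under at least 1 of 32 alternatives, among them Rpl7a, Rpl7l1, Rpl13a, Rps2 and Rpsa, and none passed the threshold. The replicate block called 210 genes and a term for the 2 sets of numbers 404, against 137. The division into numbers 1 to 3 and 4 to 6 was chosen after seeing the data. So was leaving VPA_OCA replicate 2 out of numbers 1 to 3.

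The difference of 0.33 for Rpl22l1/Rpl22 and of 0.257 for Rps27l/Rps27 kept its size and did not pass with the replicate block, where the sign-flip test can hardly pass after adjustment, and the calls were lost after GC correction (0.321 and 0.243). After a correction for width, chosen like that for GC after seeing the data, Rpl7l1/Rpl7 (0.373) passed. Leaving out each library in turn gave 0.276 to 0.374 for Rpl22l1/Rpl22, 0.22 to 0.300 for Rps27l/Rps27, 0.236 to 0.388 for Rpl7l1/Rpl7 and −0.747 to −0.279 for Rpl3l/Rpl3. The cause of these changes was not tested. The numbers 1 to 3 and 4 to 6 leave 3 libraries per group, which limits those comparisons, and for Rpl3l, Rpl10l and Rpl39l depth is the limit. Doses, housing and the day of collection were not analysed here.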
